A study of Caenorhabditis elegans with 3 samples.

Results

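The 5 genes annotated as srpr-1.1, srpr-1.2, srpr-2.1, srpr-2.2 and srpr-3 encode the RNA of the signal recognition particle (SRP) in the nematode *Caenorhabditis elegans*. They were chosen by name and located with the RefSeq annotation of assembly WBcel235 (the sequence of build ce11), where they make up 5 of 46890 annotated nuclear genes. The data are ChIP-seq peaks (sequencing of DNA that comes down with a protein) of RPC-1, the largest subunit of the enzyme RNA polymerase III (Pol III). Strain YL517 carries an insertion that puts a GFP-FLAG tag at the C terminus of RPC-1, and an anti-GFP antibody was used on chromatin of whole young adult hermaphrodites, broken up by sonication. No untagged control was analysed here. All 3 biological replicates belong to that 1 group and carry the tag, so genes were compared with each other and not conditions. Whole animals were used, so the tissues in which a gene is bound cannot be told apart.

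The SRP is a particle of 1 RNA and several proteins that binds the signal peptide of a protein as it leaves the ribosome and brings the ribosome to the endoplasmic reticulum. The RNA is the scaffold of the particle, and a loop within it (helix 8 in the human RNA, which is called 7SL) is bound by the protein SRP54. In human cells 7SL RNA is made by Pol III from a promoter with elements both before the start of the gene and inside it, and Pol III stops at a run of T. Such genes share this polymerase with tRNA, 5S rRNA, U6, RNase P, RNase MRP and Y RNA genes.

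Reproducible RPC-1 peaks lay over all 5 SRP RNA genes, and so did peaks in the list of each replicate and in the list of the pooled replicates. Peak signal was moderate at the 4 genes of chromosome III, with 731 to 1145, and low at srpr-3 on chromosome V, with 96.6. The strongest summit lay inside the gene at srpr-1.2, srpr-2.1, srpr-2.2 and srpr-3 in all 5 lists. At srpr-1.1 it lay past the 3′ end of the gene in all 5 lists, and the summit inside that gene had a reproducible signal of 204.

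The genes on chromosome III are near copies of each other and srpr-3 is a diverged one. The gene sequences are shown whole because several results below turn on what the copies share, as the sense strand 5′ to 3′ from RefSeq WBcel235, and srpr-1.2 is the sequence with which the others are compared. Capitals mark bases that differ from srpr-1.2 in a global alignment, and missing bases are not marked. srpr-1.2 is at chrIII:4369468-4369766 (+ strand), srpr-1.1 at chrIII:4378909-4379206 (- strand), srpr-2.1 at chrIII:5211220-5211518 (+ strand), srpr-2.2 at chrIII:5031410-5031708 (- strand) and srpr-3 at chrV:9293334-9293632 (- strand).
srpr-1.2: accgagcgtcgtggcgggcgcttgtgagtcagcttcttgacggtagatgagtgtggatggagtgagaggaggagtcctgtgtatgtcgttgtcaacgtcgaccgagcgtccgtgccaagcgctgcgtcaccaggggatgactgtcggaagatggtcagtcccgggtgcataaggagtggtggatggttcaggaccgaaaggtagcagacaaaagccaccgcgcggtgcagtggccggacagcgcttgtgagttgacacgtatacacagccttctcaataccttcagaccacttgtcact
srpr-1.1: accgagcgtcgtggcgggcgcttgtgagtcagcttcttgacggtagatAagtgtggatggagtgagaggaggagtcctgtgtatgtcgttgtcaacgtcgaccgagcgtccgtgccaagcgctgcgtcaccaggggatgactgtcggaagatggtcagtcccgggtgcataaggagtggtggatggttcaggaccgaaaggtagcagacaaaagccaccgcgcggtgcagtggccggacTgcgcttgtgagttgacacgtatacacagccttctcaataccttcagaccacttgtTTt
srpr-2.1: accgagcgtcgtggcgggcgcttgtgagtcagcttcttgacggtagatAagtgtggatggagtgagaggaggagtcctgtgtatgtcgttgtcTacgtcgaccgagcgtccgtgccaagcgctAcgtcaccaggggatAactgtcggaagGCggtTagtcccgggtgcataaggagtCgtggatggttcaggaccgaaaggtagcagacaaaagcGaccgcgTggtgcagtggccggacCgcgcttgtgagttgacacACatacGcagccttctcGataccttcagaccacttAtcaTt
srpr-2.2: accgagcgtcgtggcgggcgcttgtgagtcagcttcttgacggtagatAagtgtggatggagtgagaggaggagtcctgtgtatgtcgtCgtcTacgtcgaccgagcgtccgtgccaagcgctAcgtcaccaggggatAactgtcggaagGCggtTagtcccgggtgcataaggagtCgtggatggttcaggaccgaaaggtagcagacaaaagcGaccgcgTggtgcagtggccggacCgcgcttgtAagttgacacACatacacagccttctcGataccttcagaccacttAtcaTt
srpr-3: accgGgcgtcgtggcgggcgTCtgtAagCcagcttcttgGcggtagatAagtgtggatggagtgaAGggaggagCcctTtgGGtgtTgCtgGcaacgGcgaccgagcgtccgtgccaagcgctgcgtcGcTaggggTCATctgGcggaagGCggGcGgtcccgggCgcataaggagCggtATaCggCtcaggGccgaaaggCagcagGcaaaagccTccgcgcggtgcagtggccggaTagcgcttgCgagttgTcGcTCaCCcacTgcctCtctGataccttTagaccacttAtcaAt

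srpr-1.1 and srpr-1.2 were identical at 98.3% of aligned positions, and srpr-2.1 and srpr-2.2 at 99.0%. Across these pairs identity was 94.0% to 94.3%, and srpr-3 had 81.7% to 82.3% identity to the others. The 4 genes of chromosome III had a GC content of 56.5% to 57.5%, and srpr-3 had 62.9%. The 2 genes of the first pair stand on opposite strands with 9142 bp between them, and those of the second stand on opposite strands with 179511 bp between them. Identity of srpr-3 to srpr-1.2 was uneven along the gene, as the plot of identity in 25-base windows shows.

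**Figure D1:**
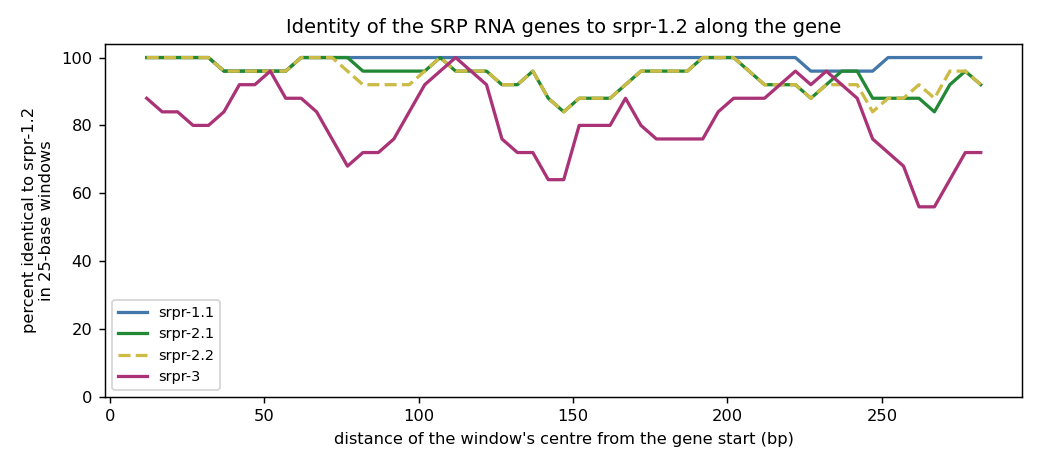
Percent of positions identical to srpr-1.2 (y axis) in windows of 25 bases along the gene (x axis, distance of the window's centre from the gene start in bp), for 4 SRP RNA genes. srpr-1.1, with 98.3% identity over its length, runs near the top, and srpr-3, with 82.3%, falls lowest near the 3′ end and comes back to the level of the others in a few stretches.

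The surroundings of the genes differ. srpr-1.1 has 1 base between its 3′ end and pals-26, a protein-coding gene on the opposite strand whose product is a protein with an ALS2CR12 signature, and 114 bases between its start and B0284.3, an RRM domain gene on the same strand. srpr-1.2 lies wholly outside exons within ckb-2, the gene of a choline kinase, on the same strand. srpr-2.1 lies between genes, with 477 bases between its 3′ end and ZC155.4, a GP-PDE domain gene on the opposite strand. srpr-2.2 lies outside exons within klp-6, a kinesin-like gene on the opposite strand, and its first 39 bases are also annotated as part of the non-coding RNA gene R144.16. srpr-3 is covered over its whole length by the annotated non-coding RNA gene F44A2.13 on the same strand, so peaks cannot be told apart between those 2 annotations.

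The bases before the start are shown next, since the near copies share nearly all of them in 1 pair and fewer in the other. Each line gives 80 bases before the gene and its first 10 bases in capitals, at chrIII:4379197-4379286 (-), chrIII:4369388-4369477 (+), chrIII:5211140-5211229 (+), chrIII:5031699-5031788 (-) and chrV:9293623-9293712 (-).
srpr-1.1: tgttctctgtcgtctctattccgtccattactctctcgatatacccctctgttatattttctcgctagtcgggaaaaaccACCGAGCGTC
srpr-1.2: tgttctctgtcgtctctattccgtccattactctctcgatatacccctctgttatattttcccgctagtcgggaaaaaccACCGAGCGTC
srpr-2.1: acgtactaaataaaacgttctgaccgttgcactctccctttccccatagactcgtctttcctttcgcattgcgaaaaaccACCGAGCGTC
srpr-2.2: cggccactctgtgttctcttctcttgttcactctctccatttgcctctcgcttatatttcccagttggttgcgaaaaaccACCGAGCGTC
srpr-3: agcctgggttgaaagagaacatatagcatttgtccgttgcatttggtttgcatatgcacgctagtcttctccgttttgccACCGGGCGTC
The 100 bases before the start were compared position by position without gaps. Of these, 95 were the same in srpr-1.1 and srpr-1.2, against 34 in srpr-2.1 and srpr-2.2. srpr-2.2 had 59 the same as srpr-1.1 and 59 the same as srpr-1.2. Thus srpr-1.1 and srpr-1.2 share their sequence on both sides of the start. srpr-2.1 and srpr-2.2 share the gene sequence and, by this count, fewer positions before it. An inserted or missing base would lower such a count, and both have ttgcgaaaaacc directly before the start. The letters TATA were present 50 to 16 bases before the start in 3 of the 5 genes, srpr-1.1, srpr-1.2 and srpr-2.2, and in 19.0% of all nuclear genes and 16.2% of tRNA genes.

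Elements inside the genes were searched on the sense strand with letters chosen after the sequences had been seen. A match is a description of letters and not of a bound site. The B box, an internal Pol III promoter element searched as GGTTC, any base, A, any 2 bases and CC, with up to 1 mismatch, in the first 299 bases, began at base 185 in the 4 genes of chromosome III. srpr-3 had 2 mismatches at the same place, in the letters GGCTCAGGGCC where the other genes have GGTTCAGGACC. The same letters matched 6.64% of all nuclear genes in their first 299 bases and 88.1% of tRNA genes over their own length. In the A box search, too, nuclear genes were searched over 299 bases and tRNA genes over their own length. The shares of nuclear and tRNA genes thus do not cover equal lengths. The A box, searched as TGGC, any 2 bases and AGTGG with up to 2 mismatches, matched all 5 genes, and also 19.8% of all nuclear genes and 97.7% of tRNA genes. Its best match began at base 223 in the genes of chromosome III, after the B box. In srpr-3 the first of its best matches began at base 4, with 2 mismatches. The letters CGGTGCAGTGG, the match of srpr-1.1 and srpr-1.2 with 2 mismatches, also stand at base 223 in srpr-3.

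The stretch of the loop that binds SRP54 in the human particle was shared by srpr-3 and the rest. The letters G, any base, AA, any 3 bases and AGCAG were found without mismatch from base 196 on in all 5 genes. Of nuclear genes, 0.508% had them in their first 299 bases, and of 612 tRNA genes, 0 had them. The tRNA genes were searched over their own length only, so their 0 cannot be set beside a search of 299 bases. The match begins directly after the place of the B box and does not overlap it. The 30 bases around it, with the match in capitals, are shown for srpr-1.2 (chrIII:4369653-4369682, +) and srpr-3 (chrV:9293418-9293447, -).
srpr-1.2: gttcaggaccGAAAGGTAGCAGacaaaagc
srpr-3: gctcagggccGAAAGGCAGCAGgcaaaagc

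The 3′ ends are shown because the strongest summit at srpr-1.1 lies past them. Each line gives the last 20 bases of the gene and 20 bases after it, with runs of 4 or more T in capitals, at chrIII:4378889-4378928 (-), chrIII:4369747-4369786 (+), chrIII:5211499-5211538 (+), chrIII:5031390-5031429 (-) and chrV:9293314-9293353 (-).
srpr-1.1: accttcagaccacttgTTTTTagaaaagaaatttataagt
srpr-1.2: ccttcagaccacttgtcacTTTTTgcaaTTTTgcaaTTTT
srpr-2.1: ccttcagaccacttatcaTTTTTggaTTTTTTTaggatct
srpr-2.2: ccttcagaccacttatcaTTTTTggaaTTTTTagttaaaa
srpr-3: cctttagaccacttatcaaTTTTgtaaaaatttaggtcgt
All 5 genes had TTTT within 10 bases before to 20 bases after the last base, as did 98.7% of tRNA genes and 46.9% of all nuclear genes. The run began at base 295 in srpr-1.1, at base 298 in srpr-2.1 and srpr-2.2, and at base 299 in srpr-1.2 and srpr-3, so it stood at the annotated end in each.

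The reproducible list, which holds peaks whose rank was steady between replicates by the irreproducible discovery rate (IDR), has 1914 peaks on 1673 distinct intervals. Its signal, the peak caller's own value, runs from 76.7 to 9672 with a median of 453.5. The replicate lists hold 24159, 24539 and 29975 nuclear peaks and the pooled list 29975, most of them weak. The lists carry no read numbers, so the depth behind a peak is unknown. A gene was counted as overlapped where a peak covered at least 1 bp of it. All 5 SRP RNA genes were overlapped by a reproducible peak (100%, exact 95% interval 47.8% to 100%, which covers the counting of genes only), against 4.91% of the 46890 nuclear genes. All 5 were also overlapped in the lists of replicates 1, 2 and 3 and in the pooled list, against 28.8%, 29.4%, 32.7% and 30.9% of nuclear genes. When each of these lists was limited to its strongest 1914 peaks, all 5 remained overlapped, against 4.74%, 4.65%, 4.88% and 4.94%. Of the other annotated non-coding RNA genes, a reproducible peak overlapped 6.66%. Among other Pol III genes, it overlapped 590 of 612 tRNA genes (96.4%) and 3 of 3 RNase P, RNase MRP and Y RNA genes. It also overlapped 17 of 22 U6 genes (77.3%) and 3 of 16 5S rRNA genes (18.8%). U6 genes are here the annotated small nuclear RNA genes that contain the letters ACAGAGA. For all 5 genes 1 reproducible peak covered 50% or more of the gene, as for 3.06% of nuclear genes.

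Values per gene are given as signal within 1 list and as the percentile of the strongest peak, that is the percent of the list's peaks with a lower signal. srpr-2.1 had the highest signal of the 5 genes, 1145 in the reproducible list (rank 661, percentile 65.5), on a peak of 948 bp. Its percentile was 97.3 in replicate 1, 97.6 in replicate 2, 98.1 in replicate 3 and 98.0 in the pooled list. It ranked first among the 5 genes in every one of the 5 lists.

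srpr-1.2 had a signal of 980 in the reproducible list (rank 698, percentile 63.5) on a peak of 875 bp. Its percentile was 96.8, 97.1 and 97.6 in replicates 1, 2 and 3, and 97.6 in the pooled list. srpr-2.2 had a signal of 731 (rank 773, percentile 59.6) on a peak of 825 bp. Its percentile was 96.8, 97.0 and 97.9 in replicates 1, 2 and 3, and 97.8 in the pooled list. The order of these 2 genes changed between lists, with srpr-2.2 higher in replicates 1 and 3 and in the pooled list, and srpr-1.2 higher in replicate 2 and in the reproducible list.

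srpr-1.1 had a signal of 738 in the reproducible list (rank 770, percentile 59.8) on a peak of 739 bp, with its summit outside the gene. Its percentile was 96.2, 96.4 and 97.5 in replicates 1, 2 and 3, and 97.3 in the pooled list. It was the fourth of the 5 genes in the pooled list and in each replicate list, and the third in the reproducible list. In the reproducible list the signals of srpr-1.1 and srpr-2.2 differed by little, with a ratio of srpr-2.2 over srpr-1.1 of 0.990, whereas the ratio was 1.50, 1.52 and 1.62 in replicates 1, 2 and 3.

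srpr-3 had a signal of 96.6 in the reproducible list (rank 1772, percentile 7.42), close to the lowest signal of that list. Its reproducible peak was 161 bp wide and covered 52.8% of the gene, whereas the other 4 genes were covered whole. Its percentile was 93.1, 92.9 and 94.6 in replicates 1, 2 and 3, and 94.5 in the pooled list, so it was last of the 5 genes in all 5 lists. srpr-1.2 had 10.1 times the signal of srpr-3 in the reproducible list, 7.54 times in the pooled list, and 5.98, 7.81 and 7.16 times in replicates 1, 2 and 3. srpr-1.1 had 7.64 times its signal in the reproducible list and 4.19, 4.89 and 6.09 times in replicates 1, 2 and 3.

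Over the 3 replicate lists, the percentile was 97.7 ± 0.410 at srpr-2.1, 97.2 ± 0.576 at srpr-2.2, 97.1 ± 0.433 for srpr-1.2, 96.7 ± 0.670 for srpr-1.1 and 93.5 ± 0.937 at srpr-3 (mean ± SD, n = 3). Replicate 3 has the longest list and gave all 5 genes their highest percentile, so differences between genes were taken within a replicate. srpr-2.1 exceeded srpr-1.2 by 0.524 ± 0.0230 percentile points and srpr-2.2 by 0.425 ± 0.190, with the same sign in 3 of 3 replicates. srpr-2.2 exceeded srpr-1.2 by 0.0987 ± 0.173, a difference smaller than its spread. srpr-1.2 exceeded srpr-1.1 by 0.446 ± 0.276, and srpr-2.2 exceeded srpr-1.1 by 0.544 ± 0.103, in 3 of 3 replicates each. srpr-1.1 exceeded srpr-3 by 3.17 ± 0.327, the widest step between neighbours in this order. No test was made, since an exact sign-flip test on 3 replicates cannot give a two-sided p under 0.25.

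**Figure D2:**
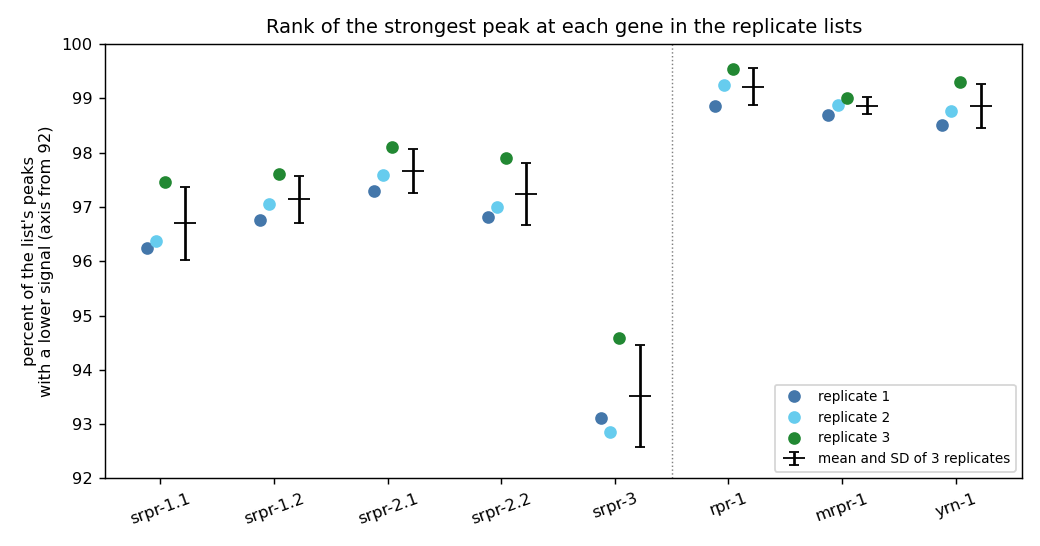
Percentile of the strongest peak (y axis, percent of the list's nuclear peaks with a lower signal, drawn from 92) at the 5 SRP RNA genes, left of the dotted line, and at rpr-1, mrpr-1 and yrn-1, right of it. Points are replicates 1, 2 and 3, bars the mean and SD. srpr-3 lies at 92.9 to 94.6, under the other SRP RNA genes at 96.2 to 98.1, and rpr-1, mrpr-1 and yrn-1 lie at 98.5 to 99.5, above all 5.

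The position of the summit was measured from the first base of the gene along its own strand, with that base at 0. At srpr-1.2 the strongest summit was at 109 bp in the reproducible list, at 99, 97 and 42 bp in replicates 1, 2 and 3 and at 81 bp in the pooled list, in the first part of the gene each time. At srpr-2.1 it was at 157, 145 and 155 bp in replicates 1, 2 and 3 and at 152 bp in the pooled list, near the middle of the gene. The reproducible list instead had a pair of summits on 1 interval at srpr-2.1, one at 16 bp with a signal of 1145 and one at 244 bp with 1142, on either side of that place.

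At srpr-2.2 the strongest summit was at 141 bp in the reproducible list, at 223, 236 and 214 bp in replicates 1, 2 and 3 and at 192 bp in the pooled list, in the later part of the gene in the replicates. At srpr-3 it was at 97 bp in the reproducible list, at 160, 102 and 200 bp in replicates 1, 2 and 3 and at 199 bp in the pooled list. The SD over replicates was 6.43 bp at srpr-2.1, 11.1 bp at srpr-2.2, 32.3 bp at srpr-1.2 and 49.3 bp at srpr-3, so the weakest gene had the widest spread.

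srpr-1.1 stood apart. Its strongest summit was at 412 bp in the reproducible list, at 445, 437 and 481 bp in replicates 1, 2 and 3 and at 457 bp in the pooled list. These summits lie 115, 148, 140, 184 and 160 bp past the 3′ end of the gene, within pals-26. The peak still reached into the gene, and all peaks together covered 68.8%, 53.4% and 59.7% of it in replicates 1, 2 and 3, with 2 peaks in replicate 1 and 1 in the others. In the reproducible list srpr-1.1 also had a summit inside the gene at 180 bp with a signal of 204 on the same interval, and another at -19 bp with 112.7. Its weaker peak before the start, at -72 bp in replicate 1 and -73 bp in the pooled list, had signals of 26.9 and 11.3, against 151.5 and 631 at the summit past the end.

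Most of the genes carried more than 1 summit. At least 2 peaks overlapped or lay within 200 bp of all 5 genes in the pooled list and in replicate 1, of 3 genes in replicate 2, of 4 in replicate 3 and of 3 in the reproducible list. Of all nuclear genes, 19.3% had 2 or more such peaks in the pooled list, 16.1%, 16.6% and 19.7% in replicates 1, 2 and 3, and 1.49% in the reproducible list. Among tRNA genes with a peak, the share with 2 or more was 51.4% in the pooled list and 26.7% in the reproducible list. In replicates 1, 2 and 3 it was 53.4%, 61.3% and 52.7%. Among U6 genes with a peak, the share was 45.0% in the pooled list and 38.9% in the reproducible list. In replicates 1, 2 and 3 it was 45.0%, 52.6% and 63.2%. Of rpr-1, mrpr-1 and yrn-1, 2 had 2 or more peaks in the pooled list and each replicate list, and 0 in the reproducible list. The second summit lay near the 3′ end of srpr-1.2, at 300, 300 and 268 bp in replicates 1, 2 and 3. It lay past the end of srpr-2.1, at 357, 351 and 362 bp, which is 59, 53 and 64 bp beyond the gene. It lay at the start of srpr-2.2, at 16, 17 and 5 bp, so each replicate list had a pair of summits inside that gene, with signals of 228 and 216 in replicate 1, strongest first. In the reproducible list the second summit of srpr-2.2 was at -103 bp with a signal of 239.5, within the annotated span of R144.16. At srpr-3 a weaker second summit lay at -41 bp in replicate 1 and at -1 bp in replicate 3.

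**Figure D3:**
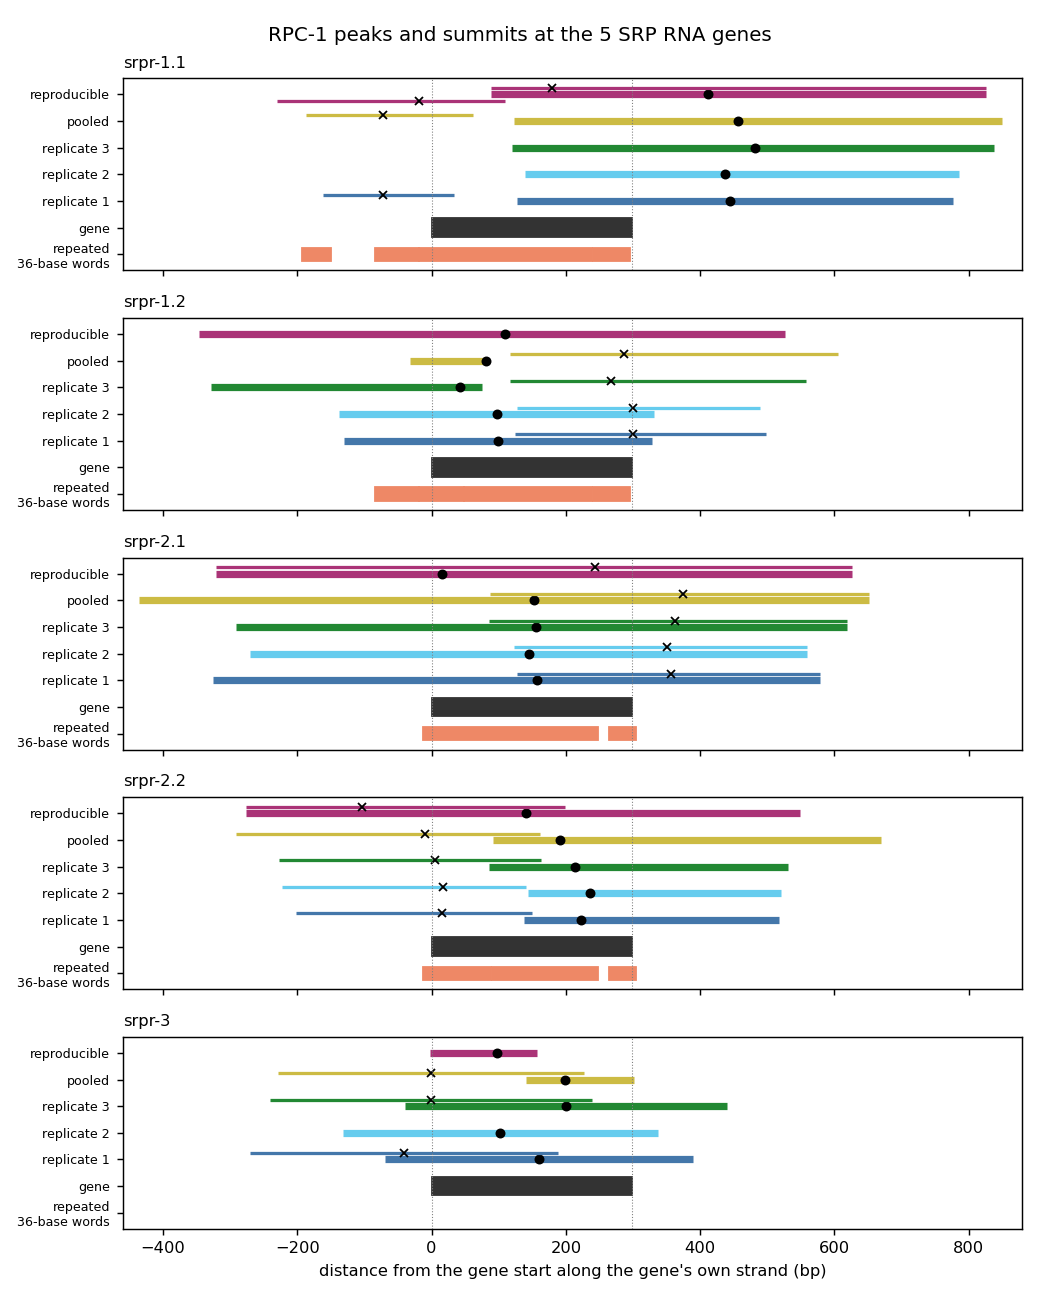
Peaks (coloured lines) and summits at the 5 SRP RNA genes by list, against distance in bp from the gene start along the gene's own strand. Thick lines with dots are the strongest peak and thin lines with crosses the others; the dark box is the gene, and the orange boxes are stretches made of 36-base words found more than once in the genome. The strongest summit of srpr-1.1 stands at 412 to 481 bp in all 5 lists, past the gene and past the orange stretch, and srpr-3 has no orange stretch.

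How much of each gene could be told from its copies was measured as the percent of its 36-base words that occur more than once in the genome on either strand. The read length is not given in the sources used here, so words of 50 and 100 bases were also counted. Repeated words of 36 bases made up 85.2% of srpr-1.1, 71.2% of srpr-1.2, 68.6% of srpr-2.1 and 67.0% of srpr-2.2, and none of srpr-3. With words of 100 bases these shares were 45.7%, 45.5%, 29.5% and 29.5%, and again none of srpr-3. In the 300 bp after each gene no word of any of the 3 lengths was repeated. In the 300 bp before the gene, 13.2% of the 36-base words were repeated at srpr-1.1, 11.3% were at its near copy srpr-1.2, and none at the other 3 genes. With 50-base words these shares were 6.37% at both genes, and with 100-base words none was repeated.

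srpr-1.1, the gene with the largest share of repeated words, was the one whose strongest summit lay outside them, in sequence found once in the genome. The strongest summits of srpr-1.2, srpr-2.1 and srpr-2.2 lay within repeated words in all 5 lists. That makes 3 of 4 strongest summits on chromosome III in each list. Stretches made of such words covered nearly all of these genes. They ran from -18 to 47, 49 to 238 and 240 to 294 bp at srpr-1.2. At srpr-2.1 they ran from -12 to 247 and 265 to 304 bp. At srpr-2.2 they ran from -12 to 88, 90 to 247 and 265 to 304 bp. The count thus adds little to the summits lying inside the gene. The second summits of srpr-2.1 past the gene lay outside repeated words in the pooled and replicate lists. Whether reads that match several copies were placed, shared or dropped is not stated in the sources used here, and the part this had in signal, summit position and number of peaks was not tested. None of the words of srpr-3 was repeated at any of the 3 lengths.

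The same percentiles were taken for other genes of Pol III. The median percentile of the 5 SRP RNA genes in the reproducible list was 59.8, against 82.2 for rpr-1, mrpr-1 and yrn-1, 83.9 for 592 tRNA genes with a peak, 59.1 for 18 U6 genes with a peak and 37.9 for 3 5S rRNA genes with a peak. Neighbouring tRNA or U6 genes can share 1 peak and each was counted. Their medians and shares are thus over genes and not over separate peaks. In signal, the median was 738 at the SRP RNA genes, against 3121 at rpr-1, mrpr-1 and yrn-1, 3311 at tRNA genes, 744 at U6 genes and 273.3 at 5S rRNA genes. The 738 is the value of srpr-1.1, whose summit lies past the gene. In the reproducible list, of the tRNA genes with a peak, 7.60% had a lower signal than srpr-2.1, 5.91% than srpr-1.2, 5.07% than srpr-2.2 and than srpr-1.1, and 0.507% than srpr-3. These shares were larger in the other lists, at 17.0% in the pooled list and 11.9%, 16.8% and 19.0% in replicates 1, 2 and 3 for srpr-2.1. For srpr-3 they were 3.47% in the pooled list and 3.47%, 2.66% and 3.64% in replicates 1, 2 and 3. Over the pooled and replicate lists they ran from 7.93% to 14.4% for srpr-2.2, from 7.60% to 9.92% for srpr-1.2 and from 6.28% to 8.60% for srpr-1.1. In all 5 lists most tRNA genes with a peak were thus stronger than each SRP RNA gene. Of the 18 U6 genes with a peak in the reproducible list, 10 were weaker than srpr-2.1 and 0 were weaker than srpr-3. In the pooled list 14 of 20 U6 genes were weaker than srpr-2.1 and 2 of 20 than srpr-3. In replicates 1, 2 and 3, the U6 genes weaker than srpr-3 were 2 of 20, 3 of 19 and 1 of 19.

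Over the 3 replicate lists, the median percentile was 97.1 ± 0.439 for the SRP RNA genes, against 99.0 ± 0.314 for rpr-1, mrpr-1 and yrn-1, 98.7 ± 0.145 for tRNA genes and 96.6 ± 0.384 for U6 genes (mean ± SD, n = 3). rpr-1, the RNA of RNase P, which trims tRNA precursors, had 99.2 ± 0.337. mrpr-1, the RNA of the related RNase MRP, had 98.9 ± 0.157, and yrn-1, the Y RNA, had 98.9 ± 0.410. Each of these 3 genes was above each SRP RNA gene in every replicate list. Their strongest summits in the reproducible list were at 17 bp at rpr-1, 94 bp at mrpr-1 and 16 bp at yrn-1, all inside the gene.

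**Figure D4:**
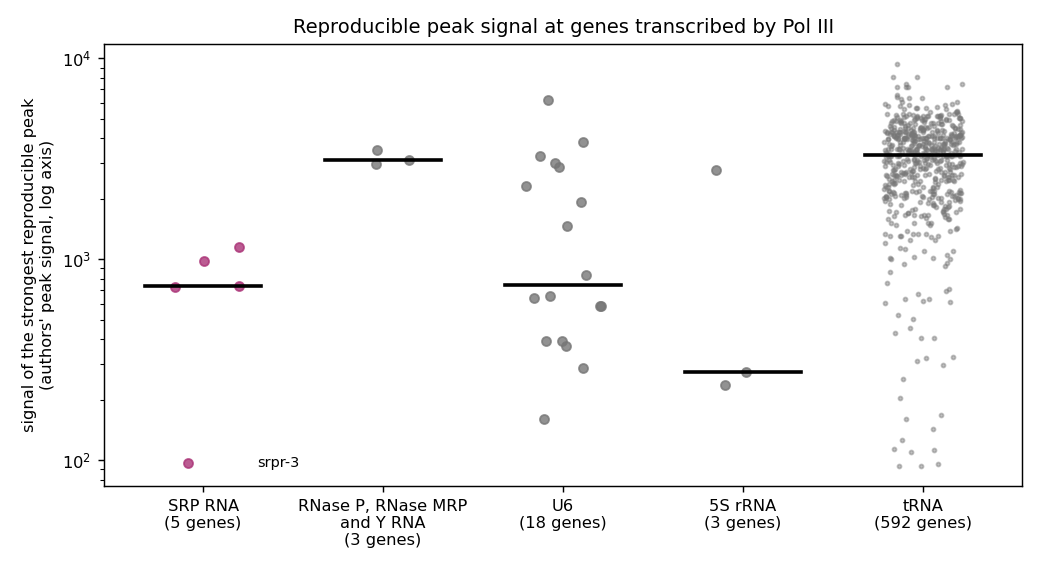
Signal of the strongest reproducible peak (y axis, the authors' peak signal, log axis) at each gene with a peak overlapping or within 200 bp, for SRP RNA genes on the left and 4 other kinds of Pol III genes. Points are genes and bars are medians. The SRP RNA median of 738 is near the U6 median of 744 and under the tRNA median of 3311, and srpr-3 lies at 96.6.

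The genes most like each SRP RNA gene in rank were found among 627 other Pol III genes by the mean absolute difference in percentile over the 3 replicate lists. For srpr-2.1 they were F11H8.t1, a threonine tRNA gene (0.0610 percentile points), and F22G12.t2, a valine tRNA gene (0.0703). For srpr-1.2 they were ZC132.t1, a glycine tRNA gene (0.0673), and F47E1.t3, annotated with no product name (0.0788). For srpr-2.2 they were C27A2.t1, an isoleucine tRNA gene (0.0912), and F47E1.t2, a glutamine tRNA gene (0.144). For srpr-1.1 they were Y17G9A.90, annotated as a small nuclear RNA and counted here as U6 (0.246), and Y54G2A.t1, an aspartate tRNA gene (0.250). For srpr-3 they were the glycine tRNA genes Y59A8B.t3 (0.322) and ZK39.t1 (0.401), so srpr-3 had the most distant neighbours.

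The protein genes of the same particle are transcribed by another polymerase and were measured at their start sites, within 250 bp either side. The list held 9 genes whose product names the particle or its receptor, among them mig-2, whose other product is a Ras-related GTPase. No start site of the 9 had a reproducible peak, against 1.57% of protein-coding genes. In the pooled list 7 of 9 had a peak, against 33.4% of protein-coding genes, and in replicates 1, 2 and 3 there were 6, 8 and 6, against 30.8%, 30.3% and 34.4%. The pooled signals given below for single genes were under the 110.5 of srpr-3 in that list, though most were above the list's median of 9.75. Among the strongest 1914 peaks of the pooled list there was a peak at 1 of the 9, against 1.91% of protein-coding genes. F21D5.7, the gene of SRP54, had a signal of 29.2 and a percentile of 87.0 in the pooled list, and F37F2.2, the gene of SRP19, had 36.2 and 89.2. F25G6.9 and F25G6.8, both annotated as the 14 kDa protein, had 49.9 and 30.5, and srpa-72, the gene of SRP72, had 24.8. ZK512.4, the gene of the 9 kDa protein, had 9.16. Y37F4.4, annotated as the docking protein FtsY, had no peak in any list.

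A search of the genome with the 5 gene sequences (BLAST, expected number of chance matches up to 1e-05) found no further full copy. It found 6 partial copies, all on the X chromosome and all matching srpr-3 from base 1 on, over 47 to 55 bases. The first 55 bases of srpr-3 (chrV:9293578-9293632, -) and of 4 of these places are shown, with capitals for bases that differ from srpr-3, since these letters are what the places share with the gene. Copy 1 is at chrX:12013771-12013825 (-), copy 2 at chrX:16371114-16371168 (+), copy 3 at chrX:16697312-16697366 (-) and copy 4 at chrX:16698130-16698184 (+).
srpr-3: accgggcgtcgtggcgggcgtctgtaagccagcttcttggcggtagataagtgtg
copy 1: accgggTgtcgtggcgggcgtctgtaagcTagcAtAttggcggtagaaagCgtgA
copy 2: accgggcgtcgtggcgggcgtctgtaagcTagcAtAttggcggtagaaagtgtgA
copy 3: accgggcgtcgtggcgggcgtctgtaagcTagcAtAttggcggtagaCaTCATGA
copy 4: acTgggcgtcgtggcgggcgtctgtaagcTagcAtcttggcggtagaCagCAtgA
Copies 4, 5 and 6 have the same 55 bases, and copies 5 (chrX:16849109-16849163, -) and 6 (chrX:16850220-16850274, +) both lie in the pseudogene T20F7.5. Copy 2 lies within ace-1, an acetylcholinesterase gene, and the non-coding RNA gene F01G12.19. Copy 4 lies in the non-coding RNA gene F22H10.10, and copies 1 and 3 in no annotated gene. The nearest annotated tRNA or other Pol III gene was 6945 bp away at copy 2 and 79107 bp away at copy 5, with the other copies between these distances.

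RPC-1 peaks lay at these places too. A reproducible peak lay within 200 bp of 5 of the 6 partial copies, all but copy 3, against 2.89% of all 50-base windows of the X chromosome. In replicates 1, 2 and 3 and in the pooled list all 6 had a peak, against 16.2%, 17.8%, 23.9% and 21.1% of windows. Beside the reproducible signal of 96.6 at srpr-3 (percentile 7.42), copy 1 had 608 (55.6), copy 2 had 327 (42.7), copy 4 had 221 (32.4), copy 6 had 155 (20.4) and copy 5 had 101.1 (8.31), so srpr-3 was lower than all 5 of these. The strongest reproducible summit lay 22 and 21 bp after the first matching base at copies 1 and 2, and 102, 96 and 151 bp after it at copies 4, 5 and 6.

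Over the 3 replicate lists, the percentile was 93.5 ± 0.937 at srpr-3, against 96.1 ± 0.477 at copy 1, 95.1 ± 0.812 at copy 2, 94.9 ± 1.08 at copy 4, 94.5 ± 1.42 at copy 6, 92.7 ± 0.516 at copy 5 and 87.2 ± 2.65 at copy 3 (mean ± SD, n = 3). srpr-3 was below copies 1, 2 and 4 in every replicate, above copies 3 and 5 in every replicate, and above copy 6 in replicate 1 but not in the other replicates. The matches end between bases 47 and 55 of srpr-3, before the places of the B box at base 185 and of the loop letters at base 196. The A box match at base 4 of srpr-3, with 2 mismatches, lies within the matched stretch. Its letters are unchanged in all copies but copy 1. Copies 3 and 4 are 763 bp apart and copies 5 and 6 are 1056 bp apart, and the part that sequence shared between copies had in their peaks was not tested. Whether these places are transcribed was not measured.

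**Figure D5:**
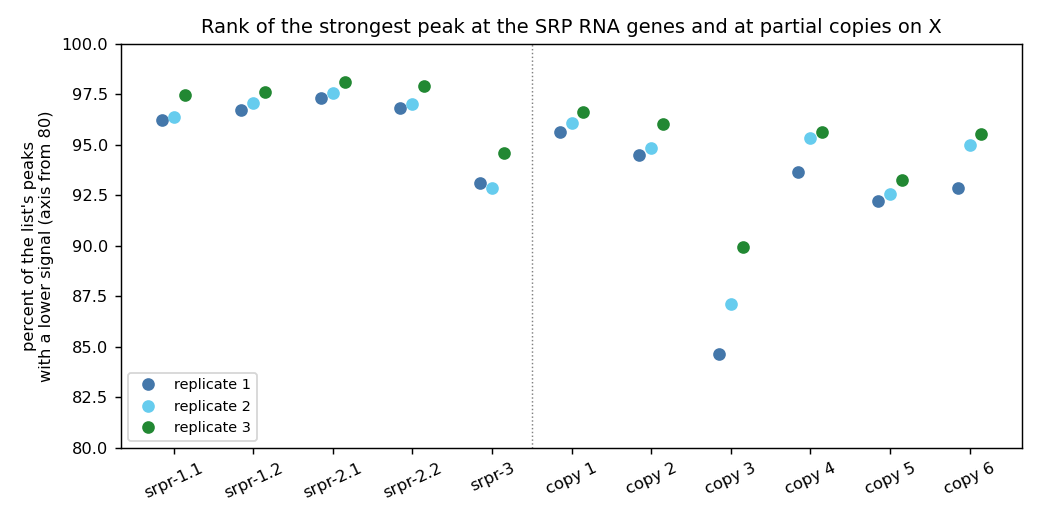
Percentile of the strongest peak (y axis, drawn from 80) over or within 200 bp of the 5 SRP RNA genes, left of the dotted line, and of the 6 partial copies on X, right of it. Points are replicates 1, 2 and 3. srpr-3, with a mean of 93.5, lies below copy 1 with 96.1 in each replicate, and above copy 3 with 87.2.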

How the data were processed

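Peak lists on build ce11 were used as deposited: 1 per replicate, 1 for the pooled replicates and 1 of reproducible peaks kept by IDR. The deposited signal is the peak caller's own value, and the authors' lists also give a −log10 q value, at 1 value throughout the reproducible list and not used for ranking. A control alignment is named in the deposited file lists and was not analysed here. Aligner, peak caller, settings and read length are not stated in the sources used here. Read depth is unknown.

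Mitochondrial peaks were left out. Of 9 reproducible peaks at the 5 genes, 0 had the same interval and summit in another ce11 list, so each list's values are given. Per gene, peaks overlapping or within 200 bp were taken, and the strongest ranked within its list. Percentiles of lists of unequal length are averaged as a description only. Motif shares are over genes of RefSeq WBcel235. Partial copies were sought with BLAST 2.17.0 (blastn), alignments were global (Biopython 1.88; match 1, mismatch -1), and all else ran in Python 3.11.15 with NumPy 2.4.6, checked on simulated peaks. Replicates are separate biological replicates per the labels.

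The genes named were all 5 members, the SRP protein genes by product, rpr-1, mrpr-1, yrn-1, genes overlapping a member, within 500 bp of it or under its peak, and the 2 nearest in rank. The members and lists were chosen with earlier results of these data known. Motifs, the search for partial copies and word lengths of 50 and 100 bases were chosen after seeing the data. Alternatives tried were other lists, thresholds, overlaps, windows and leaving out each replicate. The values of 1 SRP protein gene are not reported here.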

Additional observations from a re-analysis of the deposited data

How the results depend on the processing

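The count of 5 genes overlapped held under the pooled list, its strongest peaks, a peak over most of the gene, shortened peaks, summits within 200 bp and each replicate left out, and fell to 4 (without srpr-3) with the stronger 957 reproducible peaks. The median percentile of 59.8 was 97.6 in the full pooled list, which holds many weak peaks, and 62.3 among its strongest. With the peak whose summit is nearest to each gene it was 59.6. The replicate mean of 96.7 at srpr-1.1 was then 95.4. The mean over replicates of 97.1 was 61.1 among each replicate's strongest peaks, and 96.9 to 97.3 with each replicate left out. The median summit position of 109 bp was 16 bp with the summit nearest to the start, 192 bp in the pooled list, 168 bp over the replicate lists and 152.5 to 180 bp with each replicate left out; the cause was not tested. The count of 0 SRP protein genes was 1 in the strongest pooled peaks. With BLAST matches up to an expected number of 0.01, 6 of 8 partial copies had a reproducible peak. No paired analysis was possible because there is 1 group. The unknown depth and the lack of a value for regions under a peak threshold limit all ranks.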
